A study of Rattus norvegicus with 9 samples.

Results

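Transcripts of the inner neurons of the retina were followed in RNA from sorted retinal microglia. The set comprised 32 genes used as markers of bipolar, amacrine, horizontal and ganglion cells, selected by gene symbol from a count table of 28343 genes, and 31 of them were measured. Otx2 was not analysed here. They fall into 7 genes of ON bipolar cells (Grm6, Trpm1, Pcp2, Isl1, Nyx, Gpr179 and Gng13), 3 other bipolar genes (Cabp5, Vsx1 and Prkca), 2 genes of synaptic vesicle release (Snap25 and Syt1), 10 genes of amacrine and horizontal cells and 9 genes of ganglion cells. After removal of genes with too few counts, 22 of the 31 were tested, 5 of them ON bipolar genes.

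Microglia, the resident macrophages of the retina, had been sorted on CD11b from papain-digested whole retinas of Dark Agouti rats. The control group (5 libraries, numbered 1, 3, 4, 5 and 6) was injected with citrate buffer and had normal blood glucose. The diabetic group (4 libraries, numbered 1, 2, 4 and 5) was injected with 55 mg/kg streptozotocin, a toxin of the insulin-producing beta cells, and was hyperglycaemic. Injections were given at an age of 8 to 10 weeks after 12 hours without food, insulin (Protaphane, 2 Units) was given to diabetic rats whose glucose passed 30 mmol/l, and all retinas were taken 4 weeks after injection. The study compared the groups to find early changes of microglia in diabetes. CD11b is also carried by blood and border myeloid cells, and it is not known as a surface protein of retinal neurons. The labels do not say whether a library is 1 animal, so the p-values measure the spread between these libraries.

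Bipolar cells carry signals from photoreceptors to the inner retina, and amacrine and ganglion cells receive them there. An ON bipolar cell senses the glutamate of photoreceptors through the metabotropic receptor mGluR6, which in darkness acts through a Go protein to hold the cation channel TRPM1 shut. Light lowers glutamate, the G protein is switched off with the help of RGS proteins, and the channel opens. Horizontal and amacrine cells are mostly inhibitory and use GABA or glycine, whereas ganglion cells send long axons, rich in neurofilaments, through the optic nerve. Most of these transcripts are not products for which microglia are known, but Prkca is also used by other cell types.

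Library totals ran from 6228756 to 11332823 counts, and diabetic 4 had the lowest. Microglial markers together held 24557 to 33770 raw CPM (counts scaled by the library total alone) in control libraries and 29454 to 31272 in diabetic libraries. Of the 12 markers on that list 10 were tested, and Siglech was at 0 in every library. The 31 neuron genes together held 118 to 228 raw CPM in control and 149 to 419 in diabetic libraries, so these transcripts were a minor part of each library. In bulk RNA, more cells of a type and more RNA per cell cannot be told apart.

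The promoter windows of the ON bipolar genes are shown because the results turn on these genes and because Otx2 and Crx, homeodomain factors of bipolar cells and photoreceptors, recognise the letters TAATCC. Each window runs 5′ to 3′ on the strand of its gene, from 250 bases before the annotated start to 50 bases after it, in RefSeq's rat build GRCr8. It covers chr1:127130436-127130735 (plus strand) for Trpm1, chrX:11974667-11974966 (minus) for Nyx, chr10:35668753-35669052 (plus) for Grm6, chr12:6481258-6481557 (minus) for Pcp2 and chr2:49823393-49823692 (minus) for Isl1. Capitals mark TAATCC or, for the opposite strand, GGATTA.
Trpm1: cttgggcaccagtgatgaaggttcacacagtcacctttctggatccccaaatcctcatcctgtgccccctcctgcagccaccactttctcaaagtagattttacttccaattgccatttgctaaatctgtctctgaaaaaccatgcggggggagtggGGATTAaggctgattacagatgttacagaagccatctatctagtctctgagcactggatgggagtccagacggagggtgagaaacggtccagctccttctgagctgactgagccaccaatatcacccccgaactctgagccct
Nyx: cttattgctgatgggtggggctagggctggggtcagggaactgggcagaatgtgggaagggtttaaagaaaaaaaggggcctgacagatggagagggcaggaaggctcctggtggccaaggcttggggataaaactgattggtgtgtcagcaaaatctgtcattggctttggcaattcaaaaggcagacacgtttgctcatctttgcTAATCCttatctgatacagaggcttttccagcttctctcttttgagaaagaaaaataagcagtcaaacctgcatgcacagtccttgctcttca
Grm6: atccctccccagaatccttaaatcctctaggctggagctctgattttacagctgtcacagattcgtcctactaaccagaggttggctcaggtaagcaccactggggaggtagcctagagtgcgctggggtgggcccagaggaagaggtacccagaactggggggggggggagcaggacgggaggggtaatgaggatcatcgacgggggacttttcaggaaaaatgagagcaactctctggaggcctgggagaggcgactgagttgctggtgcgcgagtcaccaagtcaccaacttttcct
Pcp2: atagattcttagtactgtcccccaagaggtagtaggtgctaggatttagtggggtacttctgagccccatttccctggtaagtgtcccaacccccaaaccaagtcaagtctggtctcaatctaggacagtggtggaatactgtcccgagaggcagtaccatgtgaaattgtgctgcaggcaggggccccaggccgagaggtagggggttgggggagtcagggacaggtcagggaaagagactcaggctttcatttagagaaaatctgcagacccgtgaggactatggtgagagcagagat
Isl1: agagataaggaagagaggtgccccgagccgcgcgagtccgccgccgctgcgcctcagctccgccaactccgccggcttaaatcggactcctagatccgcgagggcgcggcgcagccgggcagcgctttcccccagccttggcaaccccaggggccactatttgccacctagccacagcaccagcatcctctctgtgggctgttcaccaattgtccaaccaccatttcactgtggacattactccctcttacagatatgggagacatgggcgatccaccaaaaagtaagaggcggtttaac
The Trpm1 window held GGATTA with its first letter 93 bases before the start, and the Nyx window held TAATCC 43 bases before it. The windows of Grm6, Pcp2, Isl1 and Gng13 held neither. Among the 18 members with a window in this table, 2 (11.1%) held the letters, near the 7.17% of all 33469 windows that did. Both were among the 6 ON bipolar genes with a window, which are too few to set that class apart. A match of letters is not a binding site, and no other motif was searched.

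The ON bipolar genes had higher mean values in diabetic than in control libraries in all 7 cases. None of the members passed an adjusted p of 0.05 over all genes (edgeR quasi-likelihood test), a threshold that 0.0681% of the 11748 genes tested passed. At an unadjusted p below 0.05, 6 of the 22 members tested were higher in diabetic libraries, where 8.94% of all genes tested were, and 2 were lower, near the 10.0% of all genes. At an adjusted p of 0.1, 2 members passed, Pcp2 and Isl1, both ON bipolar genes and both higher in diabetic libraries, where 1.05% of all genes tested passed as higher and 1.90% in either direction. The count of 2 rests on the set of libraries: it was 4 without control 1 or without diabetic 5, and 0 without any 1 of control 3, 4, 5 and 6 and diabetic 1, 2 and 4.

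**Figure D1:**
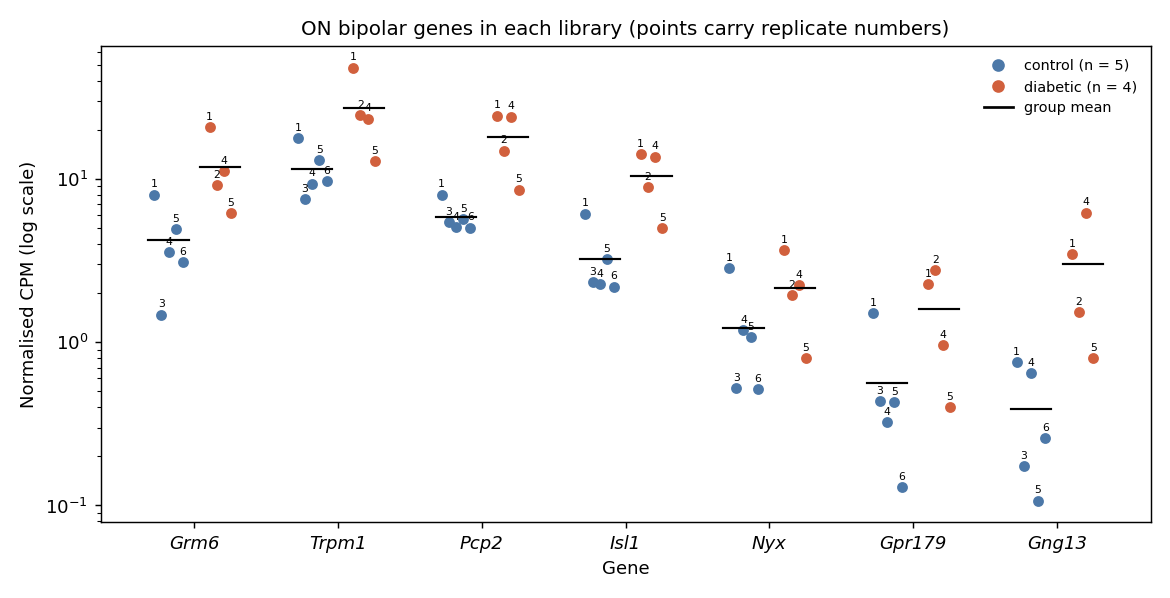
Normalised CPM (log axis) of the 7 ON bipolar genes in 5 control and 4 diabetic libraries, with the replicate number above each point and the group mean as a line. Control 1 is the highest control for each gene, diabetic 5 is the lowest diabetic library for each gene, and the groups separate only for Pcp2 and Gng13.

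Grm6 encodes mGluR6, the receptor at the head of the cascade. Normalised CPM (CPM on library sizes scaled by the trimmed mean of M-values) was 8.03, 1.48, 3.55, 4.93 and 3.10 for controls 1, 3, 4, 5 and 6, and 20.9, 9.20, 11.2 and 6.21 for diabetic 1, 2, 4 and 5. Diabetic 1, 2 and 4 lay above every control, and diabetic 5 lay below control 1. Group means were 4.22 ± 2.46 (SD, n = 5) and 11.9 ± 6.34 (SD, n = 4), a log2 fold change of 1.49 (SE 0.57) with an edgeR adjusted p of 0.143.

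Trpm1, the channel that the cascade controls, was the most counted of the 7 genes, with 75 to 188 reads in control and 128 to 487 in diabetic libraries. The channel was at 17.8, 7.55, 9.36, 13.1 and 9.68 normalised CPM in controls 1, 3, 4, 5 and 6, and at 48.1, 24.5, 23.4 and 12.8 in diabetic 1, 2, 4 and 5. The same 3 diabetic libraries stood above all controls, while diabetic 5 lay under both control 1 and control 5. The log2 fold change was 1.25 (SE 0.46), with an edgeR adjusted p of 0.132.

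Pcp2, a GoLoco protein that binds the Go alpha subunit, was the only tested ON bipolar gene whose groups did not overlap. Its normalised CPM was 8.03, 5.47, 5.06, 5.68 and 5.03 in controls 1, 3, 4, 5 and 6, and 24.4, 14.9, 24.1 and 8.61 in diabetic 1, 2, 4 and 5. Diabetic 5 exceeded control 1 by a small margin, and the other 3 diabetic libraries were far above it. The ratio of the group means was 3.08, and the log2 fold change of 1.61 (SE 0.42) had an edgeR adjusted p of 0.0608. Of all genes tested, 4.27% had every diabetic library above every control, and among the 22 members tested 2 did, Pcp2 and Prkca. No tested member had every diabetic library below every control, as 4.16% of all genes tested did.

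Gng13, a gamma subunit that joins the G protein of ON bipolar cells, had too few counts to be tested. It had 8, 2, 6, 1 and 2 reads in controls 1, 3, 4, 5 and 6, and 35, 15, 39 and 8 in diabetic 1, 2, 4 and 5. All 4 diabetic libraries lay above all controls in normalised CPM, though diabetic 5 (0.801 normalised CPM) and control 1 (0.756) both rested on 8 reads. Fitted without a filter on low counts, its log2 fold change was 2.87 (SE 0.81), with an edgeR adjusted p of 0.0754. The reference transcript of Gng13 (ENSRNOG00000039350, Rnor6 chromosome 10, 15088935 to 15090839, plus strand, 3 exons) was assembled in 2 libraries, diabetic 1 and diabetic 4, which were the libraries with the most reads.

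Isl1 encodes a LIM homeodomain factor of ON bipolar cells that some amacrine and ganglion cells also use. Isl1 was measured at 6.14, 2.34, 2.26, 3.21 and 2.19 normalised CPM in controls 1, 3, 4, 5 and 6, and 14.2, 8.89, 13.7 and 5.01 in diabetic 1, 2, 4 and 5. Again 3 of 4 diabetic libraries were above every control, and control 1 was above diabetic 5. The log2 fold change was 1.68 (SE 0.50), the highest among the members tested, with an edgeR adjusted p of 0.0895. Isl1 (ENSRNOG00000012556, Rnor6 chromosome 2, 48487736 to 48501436, minus strand) appeared as a reference transcript of 6 exons in 1 library, diabetic 4.

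Nyx and Gpr179 encode proteins that hold the channel and the RGS proteins at the dendritic tip, and both are genes of inherited night blindness. Nyx was at 2.84, 0.521, 1.18, 1.07 and 0.516 normalised CPM in controls 1, 3, 4, 5 and 6, and at 3.66, 1.94, 2.23 and 0.801 in diabetic 1, 2, 4 and 5. Only diabetic 1 exceeded control 1, and the log2 fold change of 0.79 (SE 0.59) had an edgeR adjusted p of 0.440. Gpr179 was not tested, with 16, 5, 3, 4 and 1 reads in the controls in the same order and 23, 27, 6 and 4 in the diabetic libraries. Its values overlapped between the groups, and diabetic 5 (4 reads) lay within the range of the controls.

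The authors' deposited table of the comparison listed 26 of the members, among them all 7 ON bipolar genes. In the authors' deposited table, 5 members had an adjusted p below 0.05, and all 5 were ON bipolar genes that were higher in diabetic libraries, where 2.10% of its 12069 genes were called and 1.92% as higher. By the authors' deposited table, the adjusted p was 6.31e-05 for Pcp2, 0.00260 for both Isl1 and Gng13, 0.00940 for Trpm1 and 0.0224 for Grm6. Its log2 fold changes, 1.716 for Pcp2 and 1.773 for Isl1, lay near those of an edgeR fit without scaling factors (1.715 and 1.771). The median over all genes was 0.12 in that fit, and the cause of the difference in calls was not tested. The DESeq2 Wald test on the same counts called the same 5 genes at an adjusted p of 0.05, where it called 5.04% of 11789 genes and 2.39% as higher. The limma-voom test called no member, where it called 0.0340% of the 11748 genes and 0.0170% as higher.

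At an unadjusted p below 0.05 there were 4 ON bipolar genes among the 5 tested, all higher, where 8.94% of all genes tested were higher at that level. The median log2 fold change of the 5 was 1.49, against 0.0017 over all 11748 genes. For the 17 other members tested the median was 0.20, with 11 higher and 6 lower. An unadjusted p below 0.05 was reached by Cabp5 and Prkca, both higher, and by Nefl and Nefm, both lower, where 10.0% of all genes tested were lower at that level. The members were chosen with earlier results of these data known, so these counts describe the list and do not test it.

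**Figure D2:**
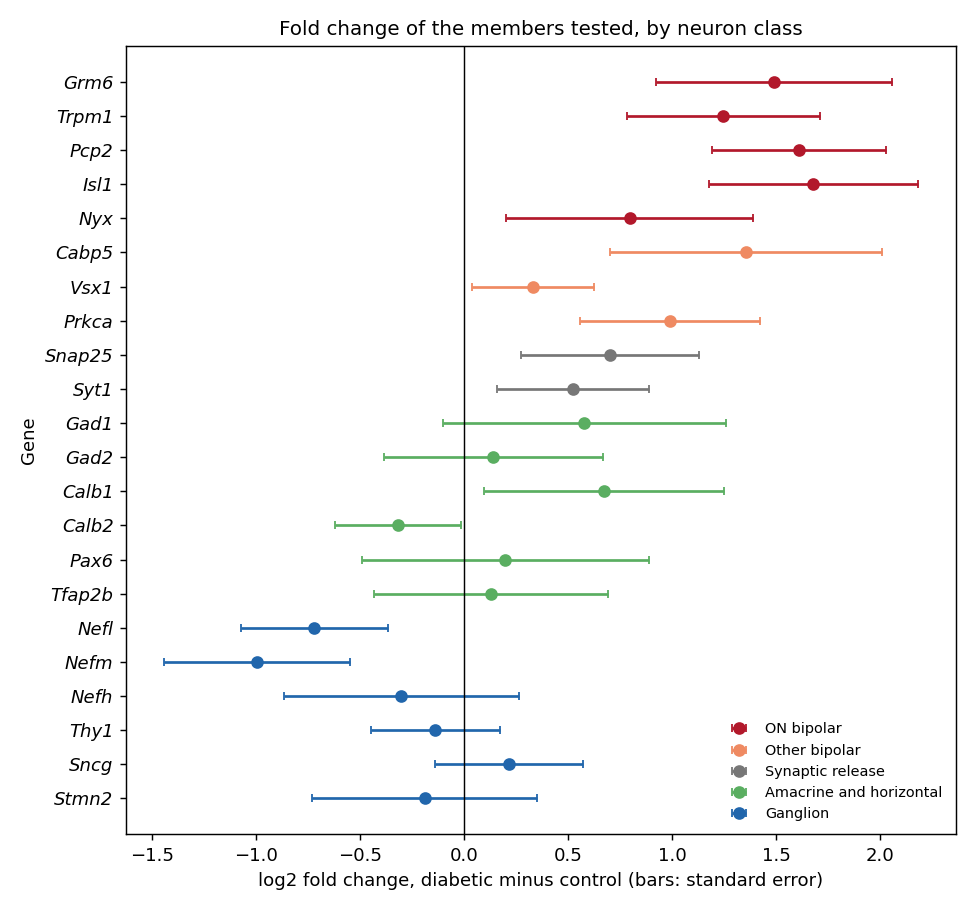
Log2 fold change, diabetic minus control, of the 22 members tested, with standard errors as bars and colours for the neuron class. The 5 ON bipolar genes lie between 0.79 and 1.68, the other bipolar genes between 0.33 and 1.35, and 5 of 6 ganglion genes lie below 0.

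Among the other bipolar genes, Cabp5, a calcium-binding protein of rod and some cone bipolar cells, was also highest in diabetic 1. It was at 3.50, 0.434, 1.94, 1.29 and 1.55 normalised CPM in controls 1, 3, 4, 5 and 6 and at 8.40, 4.70, 3.51 and 1.201 in diabetic 1, 2, 4 and 5. Diabetic 5 lay below 4 of the 5 controls, and the log2 fold change of 1.35 (SE 0.65) had an edgeR adjusted p of 0.240. The gene lies on Rnor6 chromosome 1, 75693232 to 75706069.

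Prkca, protein kinase C alpha, is the usual antibody marker of rod bipolar cells and is also used by other cell types. Normalised CPM of Prkca was 3.40, 2.52, 2.69, 3.32 and 3.23 in controls 1, 3, 4, 5 and 6, and 12.5, 4.29, 3.67 and 3.50 in diabetic 1, 2, 4 and 5. All diabetic libraries lay above all controls, yet only diabetic 1 stood far from them. The log2 fold change of 0.99 (SE 0.43) had an edgeR adjusted p of 0.197, and without diabetic 1 it was 0.34.

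Vsx1, a homeodomain factor of cone bipolar cells, did not share this pattern. Vsx1 was at 26.0, 17.7, 15.5, 20.6 and 9.68 normalised CPM in controls 1, 3, 4, 5 and 6 and at 16.3, 33.1, 23.0 and 17.9 in diabetic 1, 2, 4 and 5. Diabetic 1, the highest library for 13 of the 22 members tested, was the lowest diabetic library here. The log2 fold change was 0.33 (SE 0.29), with an edgeR adjusted p of 0.521.

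The assemblies differ for Vsx1 as well. Its reference transcript (ENSRNOG00000042220, Rnor6 chromosome 3, 146484238 to 146491837, minus strand, 5 exons) was assembled in 6 of 9 libraries. In all 9 libraries the same span also held assembled transcripts labelled with the opposite strand, 1 to 5 per library and 18 in all. Every one had a single exon, and whether they came from the opposite strand or from Vsx1 itself was not tested. The strand setting of the counting is not given in the sources used here. Reads of such fragments and of the Vsx1 reference transcript cannot be told apart in the counts. Only 7 of the 32 genes appeared as a reference transcript in any assembly.

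Snap25 and Syt1, a SNARE protein and the calcium sensor of vesicle release, belong to all retinal neurons. Snap25 (Rnor6 chromosome 3, 129599353 to 129788400) was at 82.1, 31.0, 39.3, 44.6 and 62.5 normalised CPM in controls 1, 3, 4, 5 and 6 and at 128, 102, 64.4 and 42.5 in diabetic 1, 2, 4 and 5. Syt1 ran from 8.51 to 21.7 in control and from 12.4 to 35.8 in diabetic libraries. For both genes diabetic 1 and 2 lay above all controls and diabetic 4 and 5 lay among them. Their log2 fold changes were 0.70 (SE 0.43) and 0.52 (SE 0.37), with edgeR adjusted p-values of 0.341 and 0.406.

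In the amacrine and horizontal class 6 of 10 genes were tested, 5 of them with a log2 fold change above 0, and none was under an unadjusted p of 0.05. The median log2 fold change was 0.17. Gad1 and Gad2, the enzymes that make GABA, had log2 fold changes of 0.58 (SE 0.68) and 0.14 (SE 0.53). Gad1 was at 2.25 to 16.0 normalised CPM in control and 4.46 to 24.0 in diabetic libraries, with the highest value in diabetic 1, and diabetic 4 and 5 were below 4 of the 5 controls. Pax6, a homeodomain factor of amacrine, horizontal and ganglion cells, ran from 1.07 to 9.03 in control and from 1.75 to 12.4 in diabetic libraries (log2 fold change 0.20, SE 0.69).

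The calcium-binding proteins differed in where they were high. Calb1, calbindin, a marker of horizontal cells, was at 0.774 to 2.47 normalised CPM in control libraries, and in the diabetic group at 1.19, 0.613, 4.78 and 2.90 in diabetic 1, 2, 4 and 5. Diabetic 4 and 5, low for the GABA genes, were the highest libraries for Calb1. Calb2, calretinin, of amacrine and ganglion cells, was at 5.78 to 9.16 in control and 3.003 to 7.56 in diabetic libraries (log2 fold change -0.32, SE 0.30). Tfap2b, an amacrine transcription factor, had 9 to 23 reads in control and 2 to 35 in diabetic libraries.

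The 4 untested genes of this class had few reads. Slc6a9, the glycine transporter, had 3 to 16 in control and 2 to 21 in diabetic libraries. Slc32a1, the vesicular transporter of GABA and glycine, had at most 3 in a control and 7 in a diabetic library. Chat, of cholinergic amacrine cells, had at most 1 in a control and 7 in a diabetic library, and Tfap2a had a single read, in diabetic 2.

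In the ganglion class 5 of 6 tested genes had a log2 fold change below 0, and the median was -0.25. The neurofilament light and medium chains Nefl and Nefm were at an unadjusted p below 0.05 but not past the adjusted threshold. Nefl was at 6.14, 5.56, 15.5, 7.93 and 9.16 normalised CPM in controls 1, 3, 4, 5 and 6 and at 4.84, 7.05, 3.67 and 5.71 in diabetic 1, 2, 4 and 5. Control 4 was the highest, and 2 of 4 diabetic libraries were below all controls. Its log2 fold change was -0.72 (SE 0.35), with an edgeR adjusted p of 0.245.

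Nefm rested on 10 to 22 reads in control and 6 to 13 in diabetic libraries. It was at 1.29 to 2.37 normalised CPM in control libraries and at 0.593, 0.715, 1.12 and 1.30 in diabetic 1, 2, 4 and 5. Diabetic 1 and 2, the libraries with the most Snap25, had the least Nefm. The log2 fold change was -0.996 (SE 0.45), with an edgeR adjusted p of 0.207. The heavy chain Nefh overlapped, at 1.23 to 5.92 and 0.601 to 5.21 normalised CPM (log2 fold change -0.30, SE 0.56).

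Thy1, a surface glycoprotein of ganglion cells, was at 3.23 ± 0.98 (SD, n = 5) and 2.92 ± 0.58 normalised CPM (SD, n = 4), and Sncg, gamma-synuclein, was at 1.84 ± 0.53 and 2.12 ± 0.60. Stmn2, a microtubule regulator of axons, ran from 1.07 to 3.10 in control and from 0.319 to 3.16 in diabetic libraries. The untested genes had few reads. Rbpms, an RNA-binding protein of ganglion cells, had 0 to 13 reads in control and 4 to 9 in diabetic libraries, and Slc17a6, their vesicular glutamate transporter, had 3 to 19 and 0 to 11. Pou4f1, which defines many ganglion cells, had 0 reads among 84533787 counts, which allows up to 0.0355 raw CPM for counting error only.

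Summed over the class, the ON bipolar counts ordered the libraries as diabetic 1, diabetic 4, diabetic 2, control 1, diabetic 5, control 5, control 4, control 3 and control 6. The sum was 125 raw CPM in diabetic 1 (95% Clopper-Pearson interval 118 to 133, counting error only), 82.4 (75.4 to 89.8) in diabetic 4, 68.1 (62.9 to 73.7) in diabetic 2 and 35.9 (32.2 to 39.9) in diabetic 5. Control 1 held 46.4 (42.3 to 50.7), and the remaining controls held 17.5 to 29.1. Control 1 and diabetic 5 were thus the libraries where the groups crossed, and their intervals did not overlap. Group means were 26.4 ± 12.1 (SD, n = 5) and 77.9 ± 37.1 (SD, n = 4), a ratio of 2.95.

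**Figure D3:**
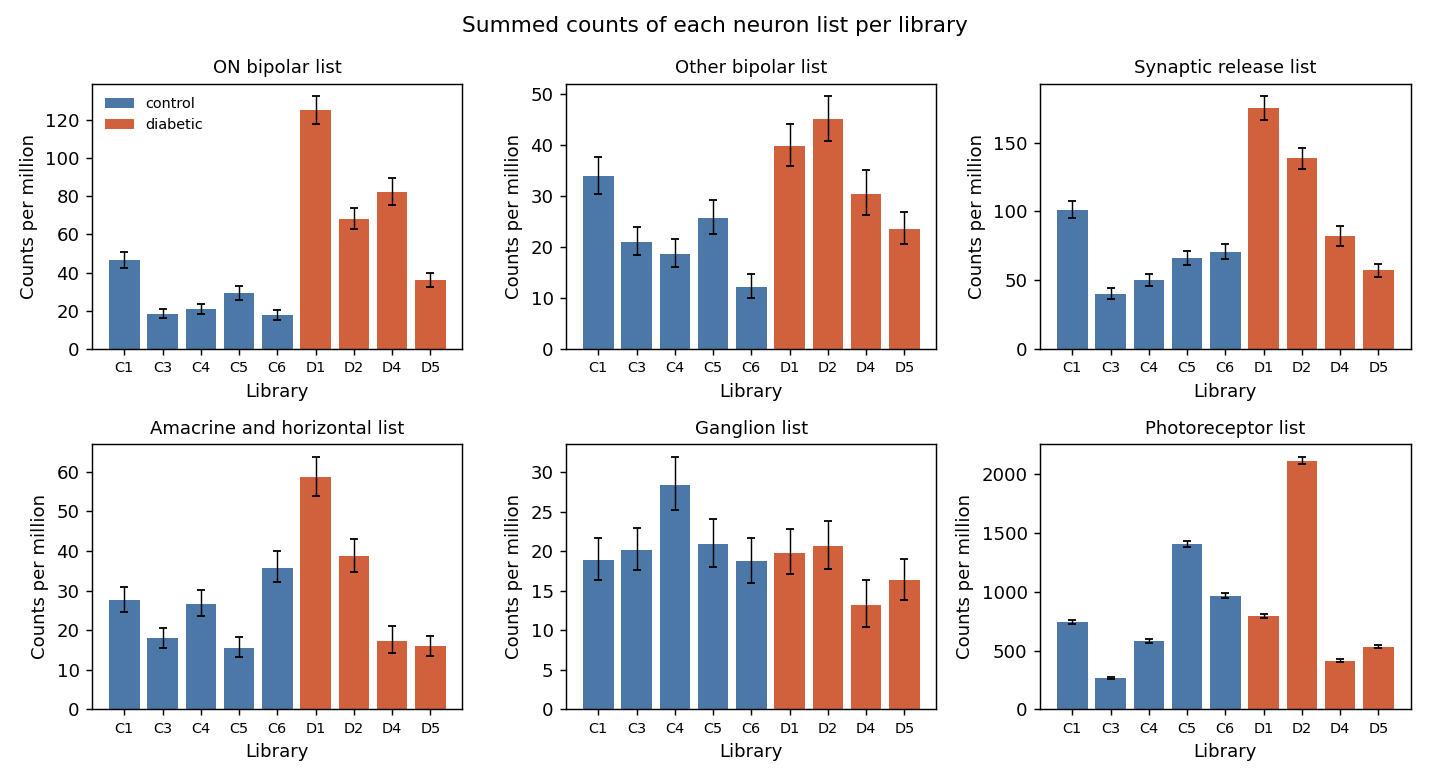
Raw CPM summed over each list (bars, axes from 0) in the 5 control (C) and 4 diabetic (D) libraries, with 95% Clopper-Pearson intervals of counting error. The ON bipolar panel runs from 17.5 to 125, the ganglion panel has its highest bar in control 4, and the photoreceptor panel has its highest bars in diabetic 2 and control 5.

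The other classes, each summed in full, did not order the libraries alike. The ratio of the group means, diabetic over control, was 1.56 for the other bipolar genes, 1.73 for synaptic release, 1.32 for amacrine and horizontal genes and 0.817 for ganglion genes. Vsx1 held 17.6 of the 22.2 raw CPM of the other bipolar mean in control and 23.6 of 34.6 in diabetic libraries. Without Vsx1 the other bipolar ratio was 2.39. Diabetic 1 (22.3 raw CPM), 2 (9.61) and 4 (7.22) were then highest, followed by control 1 (7.1) and diabetic 5 (4.88). The same libraries led the ON bipolar sum, with diabetic 4 before diabetic 2. Amacrine and horizontal genes held 58.6 raw CPM in diabetic 1 and 38.6 in diabetic 2, but 17.3 and 15.9 in diabetic 4 and 5, near the lowest control (15.6). The ganglion sum was 18.7 to 28.4 in control and 13.2 to 20.6 in diabetic libraries, so it was no higher in diabetic 1 (19.8), where the ON bipolar sum peaked. This holds for the ganglion members only, since a list of further ganglion genes, given below, was highest in diabetic 1 (31.9).

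A ratio of sums within 1 library does not depend on how the library is scaled. For every ganglion read there were 0.730 to 2.46 ON bipolar reads in control libraries and 6.33, 3.30, 6.26 and 2.20 in diabetic 1, 2, 4 and 5. Against Snap25 and Syt1 together the ratio was 0.457, 0.455, 0.417, 0.441 and 0.248 in controls 1, 3, 4, 5 and 6 and 0.715, 0.491, 1.01 and 0.630 in the diabetic libraries, which were all above the controls. Against amacrine and horizontal genes it was 0.489 to 1.86 in control and 2.14, 1.76, 4.75 and 2.26 in diabetic 1, 2, 4 and 5, so 3 of 4 were above. Control 1, high in ON bipolar counts, stood with the other controls in the ratio to the synaptic genes.

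Photoreceptor reads were far more abundant than those of inner neurons and varied widely within both groups. Their list held 265 to 1401 raw CPM in control and 415 to 2112 in diabetic libraries, and none of the 18 measured genes was at 0 in every library. Of the 17 tested, 16 had a log2 fold change above 0, the median was 0.32, and none was under an unadjusted p of 0.05. The 3 with the smallest p, the cone genes Arr3 and Gnat2 and the rod gene Gngt1, had log2 fold changes of 0.91, 0.70 and 0.67 and edgeR adjusted p-values of 0.517 to 0.572.

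The ratio of ON bipolar to photoreceptor reads was 0.0622, 0.0690, 0.0356, 0.0207 and 0.0182 in controls 1, 3, 4, 5 and 6 and 0.158, 0.0323, 0.199 and 0.0674 in diabetic 1, 2, 4 and 5. Diabetic 1 and 4 lay above all controls, and diabetic 2, which held the most photoreceptor reads, lay below 3 of them. The mean log2 ratio was -4.81 ± 0.88 (SD, n = 5) and -3.46 ± 1.2003 (SD, n = 4), a difference of 1.35.

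The make-up of the ON bipolar counts stood apart in diabetic 4 and, for Grm6, in control 3. Trpm1 gave 37.0% to 46.3% of them in every library but diabetic 4, where it gave 28.7% (24.8% to 32.8%, Clopper-Pearson). In diabetic 4 Pcp2 gave 29.4%, close to its 30.4% in control 3, and Gng13 gave 7.60% (5.46% to 10.2%), against 0.376% to 2.96% in the other 8 libraries. Isl1 gave 10.1% to 16.8%, with the highest share in diabetic 4. Grm6 gave 8.21% (4.86% to 12.8%) in control 3, against 13.6% to 17.9% in the other 8 libraries. Gpr179 had its highest share in diabetic 2 (4.33%) and Nyx in control 1 (6.29%). Control 3 had the highest depth and diabetic 4 the lowest, and whether depth bears on these shares was not tested.

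**Figure D4:**
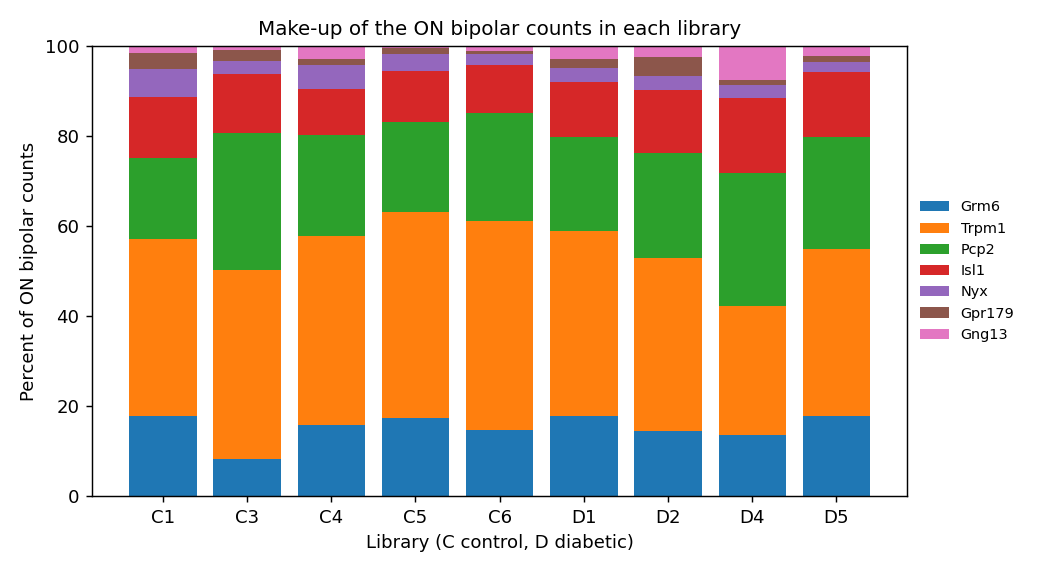
Percent of the ON bipolar counts that each of the 7 genes gave in each control (C) and diabetic (D) library. Trpm1 gives the largest share except in diabetic 4, where Pcp2 (29.4%) and Trpm1 (28.7%) are close and Gng13 reaches 7.60%.

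Further genes of these cells were read from lists that hold no member. These lists were also chosen with earlier results of these data known, so their counts describe them and do not test them. Of 8 other genes of the mGluR6 cascade 5 were tested, all with a log2 fold change above 0 and a median of 1.01. Under an unadjusted p of 0.05 there were 3, all higher, where 8.94% of all genes tested were higher at that level. Gnb3, the beta subunit that pairs with Gng13, was at 21.8, 5.47, 10.1, 9.96 and 8.00 normalised CPM in controls 1, 3, 4, 5 and 6 and at 50.4, 35.0, 31.3 and 7.71 in diabetic 1, 2, 4 and 5. Gnao1, the Go alpha subunit, and Rgs7, which ends its signal, had log2 fold changes of 1.01 (SE 0.40) and 1.23 (SE 0.51). Each of the 3 genes had 3 of 4 diabetic libraries above all controls, and edgeR adjusted p-values were 0.154 to 0.210. Gnb3 and Gnao1 are not limited to bipolar cells, since cones use Gnb3 and most neurons use Gnao1.

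**Figure D5:**
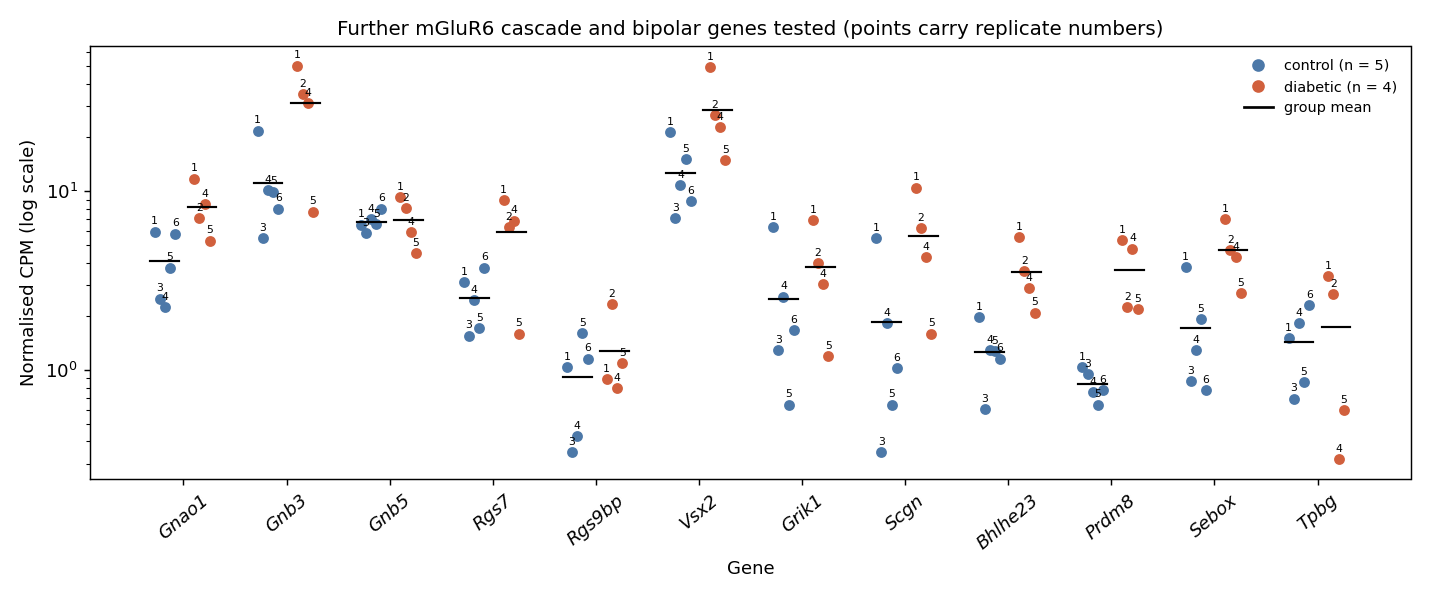
Normalised CPM (log axis) of the 12 further mGluR6 cascade and bipolar genes tested, in 5 control and 4 diabetic libraries, with replicate numbers above the points and group means as lines. Prdm8 and Bhlhe23 separate the groups, whereas Gnb5 and Tpbg do not differ beyond the spread between libraries. Of all genes tested, 4.27% had every diabetic library above every control.

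Of 11 further bipolar genes 7 were tested, again all above 0, with a median log2 fold change of 1.42. Under an unadjusted p of 0.05 there were 4, where 8.94% of all genes tested were higher at that level. Prdm8, a transcriptional regulator needed for bipolar cells, was at 1.04, 0.955, 0.753, 0.643 and 0.774 normalised CPM in controls 1, 3, 4, 5 and 6 and at 5.34, 2.25, 4.78 and 2.20 in diabetic 1, 2, 4 and 5. The groups did not overlap. A log2 fold change of 2.09 (SE 0.55) with an edgeR adjusted p of 0.0616 rested on 6 to 11 reads in control and 22 to 54 in diabetic libraries. Bhlhe23, a factor of rod bipolar cells, also had all diabetic libraries above all controls (log2 fold change 1.47, SE 0.49, edgeR adjusted p of 0.108). These were 2 of the 7 genes tested, where 4.27% of all genes tested had every diabetic library above every control. Sebox had a log2 fold change of 1.42 (SE 0.55, edgeR adjusted p of 0.149). For Prdm8, Bhlhe23 and Gnb3 the authors' deposited table listed adjusted p-values of 0.000798, 0.0319 and 0.0195.

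The further lists of other neurons held fewer tested genes. Of 14 tested neuronal and synaptic genes 12 were above 0, with a median log2 fold change of 0.36. Under an unadjusted p of 0.05 there were 4, all higher, where 8.94% of all genes tested were higher at that level. Syp (1.01, SE 0.39), Rab3a (0.56, SE 0.25) and Cplx3 (1.01, SE 0.51), a complexin of ribbon synapses, had edgeR adjusted p-values of 0.151, 0.210 and 0.256. Of 10 further ganglion genes 3 were tested, Uchl1 (log2 fold change 0.74), Tubb3 (0.36) and Map1b (0.10), and Pou4f2 and Sox11 were at 0 in every library. Uchl1 was under an unadjusted p of 0.05 and higher in diabetic libraries. Unlike the ganglion members, this list summed to 31.9 and 31.3 raw CPM in diabetic 1 and 2. It held 14.8 and 16.4 in diabetic 4 and 5, and 12.2 to 22.9 in control libraries. Of the further amacrine and horizontal genes, Prox1, a homeodomain factor of horizontal and AII amacrine cells, had a log2 fold change of -1.02 (SE 0.69), and Sst and Npy were at 0 in every library.

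Markers of other cells moved with the groups to different degrees. The blood and border myeloid list held 308 to 697 raw CPM in control and 634 to 1414 in diabetic libraries. Of its 10 genes 8 were tested, all with a log2 fold change above 0 (median 1.24), and Ccr2 was at 0 in every library. Under an unadjusted p of 0.05 there were 6, where 8.94% of all genes tested were higher at that level. Diabetic 1 and 4 were the highest libraries for this list and for the ON bipolar sum. The Muller glia list held 2192 to 2652 and 2098 to 2515 raw CPM (10 of 12 tested, median log2 fold change -0.092). The vascular list held 183 to 375 and 172 to 254 raw CPM (10 of 12 tested, median -1.02), also with 3 genes lower at that level. Cspg4 and Tek gave most of its counts, whereas Cldn5 ran from 0.129 to 57.6 normalised CPM in control and from 0.478 to 9.31 in diabetic libraries. The cell isolation list held 3661 to 20534 and 10995 to 16939 raw CPM (10 of 12 tested, median 0.071). No gene of these 3 lists that was measured was at 0 in every library, and the part of any of these cells in the neuron values was not tested.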

How the data were processed

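Raw counts per gene symbol were taken as the authors deposited them. The submitters' processing notes name bcl2fastq 2.18.0.12, TopHat2 2.0.14, StringTie 1.2.4, edgeR and the build Rnor_6.0 without their roles. How reads were assigned to genes, and whether by strand, is not given in the sources used here. Counts are reads, not molecules, amplified with SmartSeq per the labels. The authors' deposited table gives log2 fold changes, p-values and adjusted p-values. StringTie 1.2.4 assemblies, per the file headers, gave the Rnor6 spans.

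Genes were filtered with filterByExpr (minimum count 10, minimum total 15), scaled by TMM and fitted in R 4.3.3 by the quasi-likelihood method of edgeR 4.0.16, diabetic minus control over all 9 libraries, with Benjamini-Hochberg adjustment over 11748 genes and a threshold of 0.05. Standard errors were derived from the log2 fold change and its two-sided p under a normal distribution. Normalised CPM rests on TMM-scaled library sizes, raw CPM on library totals. On simulated data with 1 dispersion for all genes, the fit recovered 59.6% of log2 changes of 1 and 100% of log2 changes of 2, with 8 false calls. Genes or libraries that vary more than others were not simulated. DESeq2 1.42.0 and limma 3.58.1 (voom) were alternatives, as were other scalings and filters, a replicate block and leaving out libraries. All ON bipolar genes, and in other classes the genes that passed the filter, are named, with up to 3 of the smallest p from lists of non-members. Members and lists were chosen with earlier results of these data known.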

Additional observations from a re-analysis of the deposited data

Results flagged for a closer look

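Among 76 groups of 4 or 5 library values for members and lists, 5 had a library far from the others of its group, and chance gives about 1 in 20. In the control group, control 1 stood apart for 3 ON bipolar genes. Its normalised CPM was 8.03 for Pcp2, where the other controls ran from 5.03 to 5.68. It was 6.14 for Isl1 against 2.19 to 3.21, and 2.84 for Nyx against 0.516 to 1.18. In the diabetic group, diabetic 1 stood apart for Prkca at 12.5 normalised CPM, where the other diabetic libraries ran from 3.50 to 4.29. For the ganglion list, control 4 held 28.4 raw CPM, and the other controls held 18.7 to 20.9.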

How the results depend on the processing

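The median log2 fold change of the tested ON bipolar genes, 1.49, kept its direction under every alternative run (1.06 to 1.75), and that of the ratio of ON bipolar to photoreceptor reads, 1.35, ranged from 0.97 to 1.85 with 1 library left out. The median of the other members, 0.20, was -0.072 without both control 1 and diabetic 1, an alternative chosen after seeing the data, and ranged from -0.087 (without diabetic 1) to 0.43 with 1 library left out. Calls depended on the processing. The edgeR fit called 8 genes at an adjusted p of 0.05, against 29 without scaling factors (96.6% of them higher, against 62.5%, and a median over all genes of 0.12), 31 with upper-quartile factors (87.1% higher), 594 with DESeq2 (47.5% higher), 4 with limma-voom, 42 without a filter on low counts, 5 with a CPM filter and 3 without robust shrinkage. Members past an adjusted p of 0.1 numbered 2, against 5 with DESeq2, 0 with limma-voom and 1 without robust shrinkage. Leaving out 1 library gave 0 to 75 genes and 0 to 4 members. Without both control 1 and diabetic 1, 0 genes and 0 members passed (edgeR; 2120 genes at an unadjusted p below 0.05). The causes of these differences were not tested.

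Control and diabetic libraries share the numbers 1, 4 and 5. Over all genes tested, the deviations of same-numbered libraries from their group means had correlations of 0.201, -0.114 and 0.0156 for numbers 1, 4 and 5. Only number 1 correlated best with its own number, and control 1 and diabetic 1 were each the highest of their group in the ON bipolar sum. The labels do not say whether a number marks a pair or a batch, and this was not tested. With the replicate number as a block edgeR called 0 genes (1129 at an unadjusted p below 0.05) and 0 members, with a median of 1.13 for the ON bipolar genes. Numbers 2, 3 and 6 occur in 1 group only, so in the block fit the comparison rested on the libraries numbered 1, 4 and 5. The block also turned Vsx1 to -0.11, Gad2 to -0.23, Tfap2b to -0.40 and Stmn2 to 0.25.

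Of 418 member values under alternatives, 22 turned direction, in 8 members, none of them an ON bipolar gene. Gad2 was -0.21 with limma-voom. Without both control 1 and diabetic 1, Gad1 was -0.072, Gad2 -0.63, Pax6 -0.31 and Tfap2b -0.19. With 1 library left out, Gad1 ranged from -0.087 to 1.00, Gad2 from -0.62 to 0.47, Pax6 from -0.46 to 0.48, Tfap2b from -0.31 to 0.44, Nefh from -0.93 to 0.042, Thy1 from -0.23 to 0.055 and Stmn2 from -0.68 to 0.11. The planned repeat on TPM values of the assemblies was not run, since only 7 members have a reference transcript in any assembly. Low depth limits the untested members, and tested ones such as Tfap2b and Stmn2 fall to 2 reads in diabetic 4.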
